A study of Mus musculus with 6 samples.

Results

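The genes described here are 45 markers of macrophages and other leukocytes, taken by name from a table of read counts for 55286 gene symbols. They were sorted by their textbook roles into 12 tissue-resident macrophage genes, 15 genes of phagocytosis, 8 inflammatory genes and 10 genes used by most leukocytes. RNA sequencing had been applied to 6 mouse libraries, with 2 from mouse embryonic fibroblasts (MEF), a mixed primary culture of connective-tissue cells, 2 from muscle (Muscle), and 2 from cells obtained by direct reprogramming, which turns one differentiated cell type into another without a pluripotent stage (Transdifferentiated). The sources used here do not give the strain, genotype, age, converting agent, time in culture, muscle or dissection, nor whether replicates were separate cultures or animals, so p-values measure the spread between these libraries, which may be technical. The libraries held 16817033 to 24584951 counts each.

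Macrophages are long-lived phagocytes found in nearly every tissue. They depend on the growth factors Csf1 and Il34, read by the receptor Csf1r, and on the transcription factor PU.1, encoded by Spi1. In skeletal muscle they lie between the fibres, clear dying cells, and after injury support the regrowth of fibres from muscle stem cells. Tissue-resident macrophages are known for complement C1q, scavenger receptors and lectins, whereas cells drawn in by inflammation are known for Toll-like receptors, co-stimulatory proteins and lipid mediators.

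The groups were first compared over lineage markers. The summed level of 7 skeletal muscle genes was 303 ± 104 CPM (counts scaled to a common library size; mean ± SD, n = 2 libraries) in MEF, 39427 ± 3466 in Muscle and 34312 ± 10728 in Transdifferentiated. The highest single gene of each group stood at 290, 26158 and 25544 CPM in the same order. All 7 were higher than in MEF in both other groups at an adjusted p under 0.05. Of all tested genes, 17.3% were so in Muscle and 15.9% in Transdifferentiated. The 7 fibroblast markers summed to 20574 ± 7268 CPM in MEF, 8541 ± 3787 in Muscle and 10869.6 ± 3108 in Transdifferentiated. The pan-leukocyte gene Ptprc, which encodes CD45, had 0 counts in both Muscle libraries, and the macrophage gene Adgre1, which encodes F4/80, had 0 there too. Counts of 0 allow levels of up to 0.128 and 0.182 CPM in those libraries. Intact muscle holds resident macrophages, as background. Ptprc and Adgre1 were detected in the MEF and Transdifferentiated libraries but not in those labelled Muscle. Of the 45 genes, 11 had 0 counts in both Muscle libraries. Others were detected there, among them Csf1r (16 and 11 counts), Cd68 (47 and 17), Mrc1 (34 and 32) and Cd163 (25 and 21). The sources used here do not say whether the Muscle libraries came from whole tissue, sorted cells or cultured cells. Whether the Muscle and Transdifferentiated labels were exchanged was not tested, and each direction below holds for the libraries as labelled.

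Summed over the 45 genes, the level was highest in the Transdifferentiated libraries and lowest in Muscle. It was 163 and 159 CPM in the MEF libraries, 37.9 and 33.0 CPM in Muscle, against 1559 and 1281 CPM in Transdifferentiated. The group ranges did not overlap, and the mean sum in Transdifferentiated was 8.81 times that in MEF and 40.1 times that in Muscle. Without Lyz2, the member with the highest level per kilobase of exon in MEF and in Transdifferentiated and a gene with a near-identical copy (Lyz1) that could share its reads, these ratios were 8.36 and 30.2. With 2 libraries against 2, an exact permutation test of such a sum cannot go below p = 0.333, so none was made. In whole-culture RNA, fewer cells of a type and less RNA per cell cannot be told apart.

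**Figure D1:**
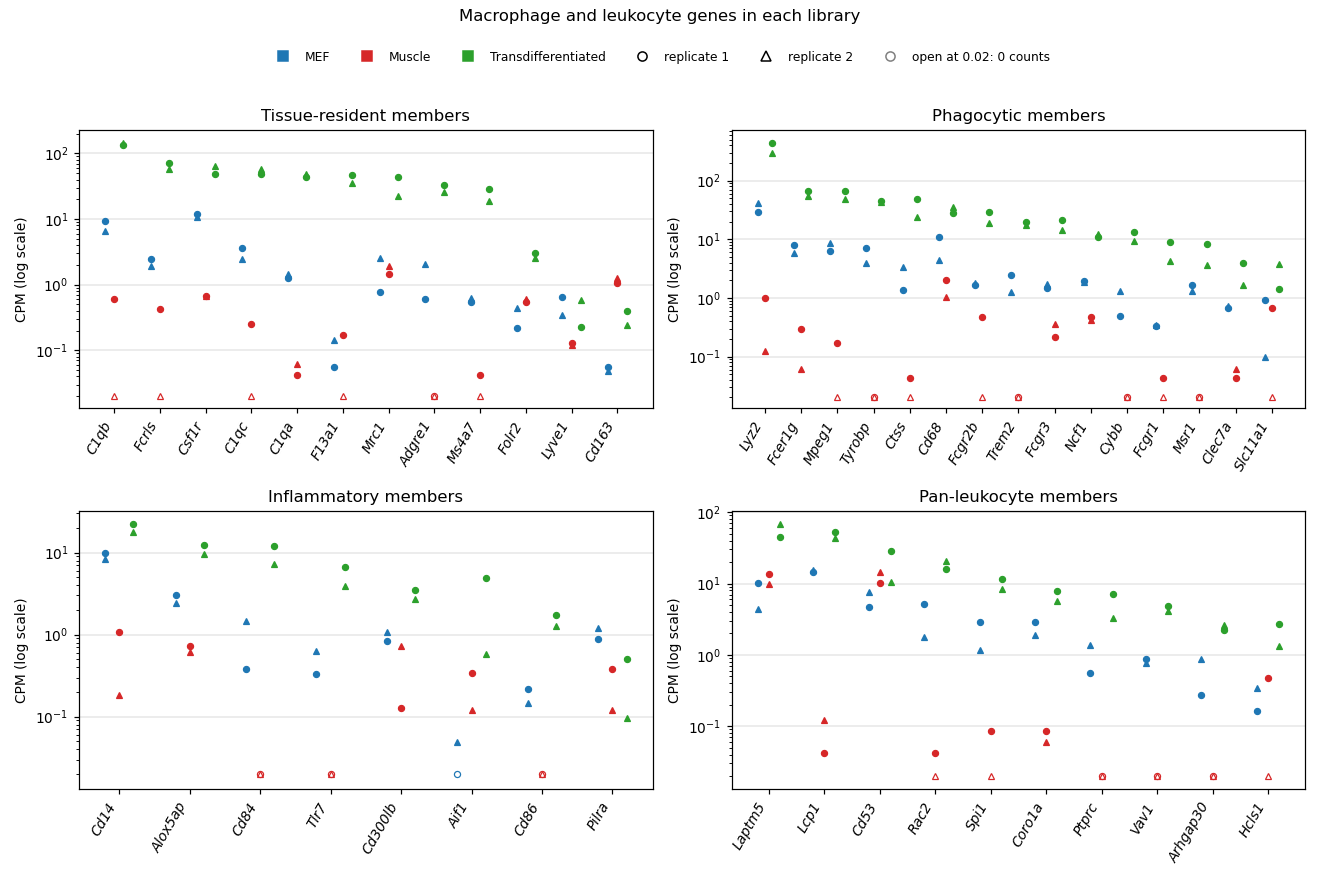
Level of each of the 45 genes in every library, in CPM on a log scale, in 4 panels by role; circles are replicate 1, triangles replicate 2, and open symbols at 0.02 mark 0 counts. The Transdifferentiated symbols lie above the MEF symbols for 43 genes and below them for Pilra, and 11 genes have 0 counts in both Muscle libraries.

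In the test across all 17400 genes that passed the filter on low counts, 37 of the 45 genes were higher in Transdifferentiated than in MEF at an adjusted p under 0.05, against 15.9% of all tested genes. None was lower, against 11.3% of all tested genes; none was lower at an unadjusted p under 0.05 either, and DESeq2 also called 0. The median log2 fold change was 2.95 over the 45 genes and 0.07 over all tested genes. All 45 passed the filter, but 12 did so only through the Transdifferentiated libraries and so had to stand high there. They were F13a1, Ms4a7, Ptprc, Aif1, Cybb, Fcgr1, Cd84, Slc11a1, Arhgap30, Cd86, Hcls1 and Tlr7. Of these 12, 9 were called. The other 33 genes had 28 called and a median log2 fold change of 2.62. The ranges of the 2 groups did not overlap for 44 genes, of which 43 were higher in Transdifferentiated and 1 was lower, where 32.7% and 27.9% of all tested genes did so.

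The medians differed between roles. The 12 tissue-resident genes had the largest median log2 fold change against MEF, 4.23, and 10 of them were called. For phagocytosis 14 of 15 were called, with a median of 3.16 and a range from 1.99 to 4.29. The 8 inflammatory genes had 5 called and a median of 2.50, with a range from -1.81 to 6.41, but 4 of these calls (Aif1, Cd84, Cd86 and Tlr7) were genes that passed the filter only through Transdifferentiated. The other 4 inflammatory genes had 1 called and a median of 1.43. Among the genes that passed through other libraries too, 8 of 10 tissue-resident, 12 of 12 phagocytic and 7 of 7 pan-leukocyte genes were called, with medians of 4.15, 3.08 and 2.32. The 10 pan-leukocyte genes had 8 called, a median of 2.36 and a range from 1.51 to 2.95. In summed level, the tissue-resident genes went from a mean of 30.4 CPM in MEF to 491 in Transdifferentiated, the phagocytic genes from 76.2 to 701, the pan-leukocyte genes from 39.1 to 174 and the inflammatory genes from 15.4 to 54.0. No test of the difference between roles was made.

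**Figure D2:**
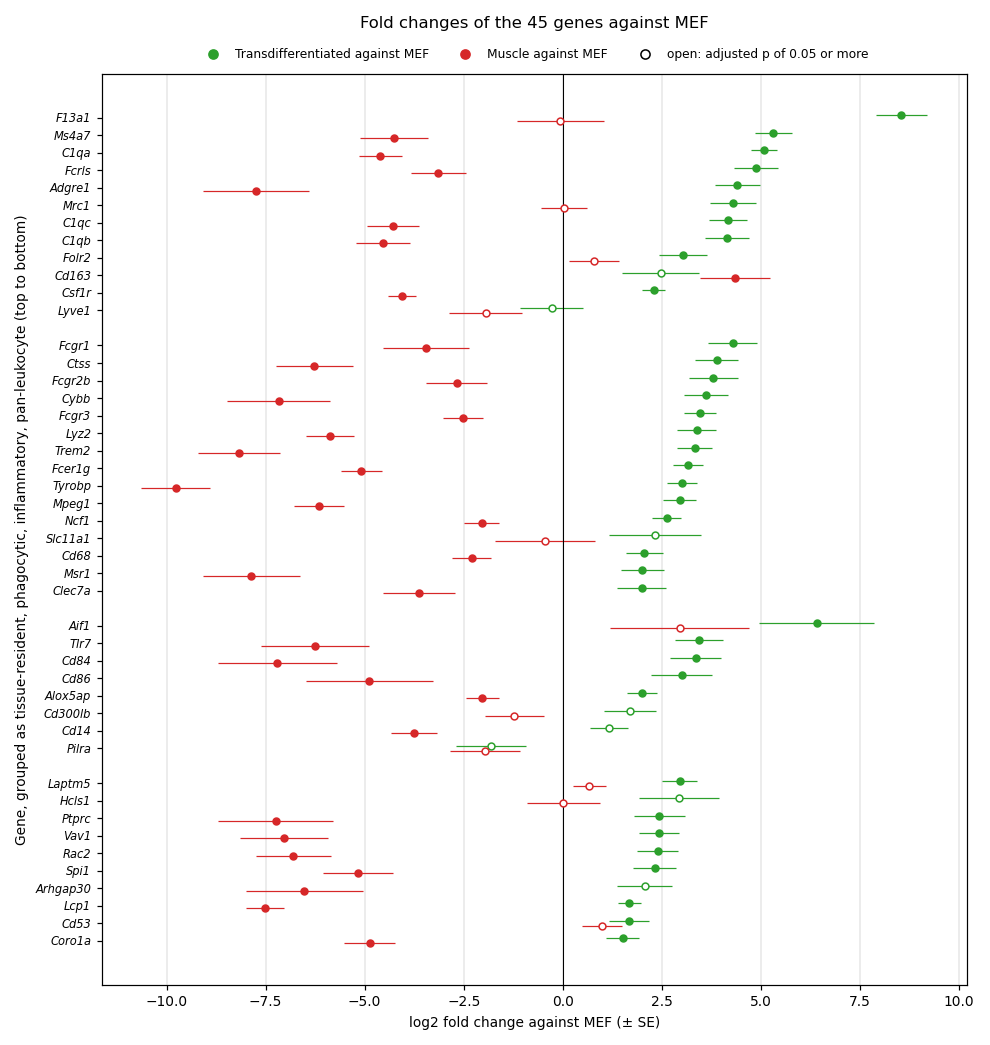
Fitted log2 fold changes (± SE) of the 45 genes against MEF, in Transdifferentiated (green) and Muscle (red), in 4 blocks by role; filled points passed an adjusted p of 0.05. The green points run from -1.81 (Pilra) to 8.55 (F13a1); red points of genes with 0 Muscle counts depend on the fit's added prior count and are no measure of size.

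Among the tissue-resident genes, the 3 chains of complement C1q, the protein that tags dying cells and debris for uptake, lie side by side on chromosome 4. C1qb (chr4:136880129-136886187, minus strand, mm10) was at 9.30 and 6.65 CPM in MEF, 0.596 and 0 in Muscle, against 136 and 145 in Transdifferentiated. The 3 groups did not overlap, and the log2 fold change of Transdifferentiated against MEF was 4.14 ± 0.55 (SE; adjusted p = 0.00077). C1qc rose by 4.17 ± 0.48 (adjusted p = 0.00035) and C1qa by 5.08 ± 0.34 (adjusted p = 1.1e-05). All 3 chains stood higher in both Transdifferentiated libraries, and a difference between them was not tested. Per kilobase of exon, C1qa stood at 1.31 CPM in MEF and C1qb at 7.33.

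F13a1 encodes the A subunit of coagulation factor XIII, an enzyme that cross-links fibrin and is made by resident macrophages and platelets. It had the largest fitted change of the list, but it passed the filter only through Transdifferentiated and so had to stand high there. F13a1 (chr13:36867178-37050244, minus strand, mm10) was at 0.055 and 0.146 CPM in MEF, which is 1 and 3 counts, at 0.170 and 0 CPM in Muscle, against 46.1 and 35.5 CPM in Transdifferentiated. Both Transdifferentiated libraries lay far above the others, which overlapped, and the log2 fold change against MEF was 8.55 ± 0.65 (adjusted p = 2.8e-05), or 9.37 without MEF replicate 2. Per kilobase of exon it moved from rank 44 of 45 in MEF to rank 18 in Transdifferentiated. An exon of F13a1 overlaps Gm30489 on the other strand, and the sources used here do not state the strand setting of the counting.

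Ms4a7, a membrane protein of resident macrophages, stood at 0.55 and 0.631 CPM in MEF and at 29.0 and 18.7 in Transdifferentiated, while the Muscle libraries held 1 and 0 counts. Its log2 fold change against MEF was 5.32 ± 0.47 (adjusted p = 7e-05). Fcrls, an Fc-receptor-like scavenger protein best known from microglia, was at 2.42 and 1.94 CPM in MEF, at 0.426 and 0 in Muscle, against 71.6 and 57.1 in Transdifferentiated, a log2 fold change of 4.88 ± 0.55 (adjusted p = 0.0003). Neither gene overlapped between groups. Adgre1 was at 0.605 and 2.09 CPM in MEF, at 0 in both Muscle libraries and at 32.5 and 25.8 in Transdifferentiated. Its MEF libraries differed, so its log2 fold change of 4.41 ± 0.56 (adjusted p = 0.00101) was 3.79 without MEF replicate 1 and 5.57 without MEF replicate 2.

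Csf1r, the receptor through which macrophages receive their survival signal, was at 11.8 and 10.9 CPM in MEF, 0.682 and 0.669 in Muscle, against 47.9 and 63.9 in Transdifferentiated. Its change of 2.30 ± 0.29 on the log2 scale (adjusted p = 0.00049) was the smallest among the 10 called tissue-resident genes, and an exon overlaps Hmgxb3 on the other strand. Mrc1, the mannose receptor CD206, was at 0.77 and 2.52 CPM in MEF, 1.45 and 1.95 in Muscle, against 43.1 and 22.5 in Transdifferentiated. MEF and Muscle overlapped for Mrc1 and Transdifferentiated stood apart, with a log2 fold change against MEF of 4.30 ± 0.58 (adjusted p = 0.00084) that was 3.69 without MEF replicate 1 and 5.39 without MEF replicate 2. Folr2, a folate receptor of resident macrophages, was at 0.22 and 0.437 CPM in MEF, 0.554 and 0.608 in Muscle, against 3.03 and 2.51 in Transdifferentiated, and rose by 3.04 ± 0.60 (adjusted p = 0.00558). Its exons overlap Gm10602 on the other strand.

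A pair of tissue-resident genes departed from this order. Cd163, the scavenger receptor for haemoglobin, had 1 count in each MEF library, 25 and 21 counts (1.07 and 1.28 CPM) in Muscle, and 7 and 5 counts (0.393 and 0.242 CPM) in Transdifferentiated. It was the 1 member higher in Muscle than in MEF (adjusted p = 0.00462), by a ratio of 22.3 with a 95% counting interval from 5.84 to 190. Cd163 passed the low-count filter only through the Muscle libraries and so had to stand high there. Against MEF the Transdifferentiated level was 6.05 times as high (interval 1.35 to 55.6, adjusted p = 0.0918), and against Muscle the log2 difference was -1.87 ± 0.69 (adjusted p = 0.143). Lyve1, a hyaluronan receptor shared by lymphatic endothelium and perivascular macrophages, was at 0.66 and 0.34 CPM in MEF, 0.128 and 0.122 in Muscle, against 0.225 and 0.58 in Transdifferentiated. MEF and Transdifferentiated overlapped, and no comparison of Lyve1 passed the test (adjusted p from 0.138 to 0.829).

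The phagocytic genes were led by Lyz2, which encodes the lysozyme of macrophages. Lyz2 (chr10:117277331-117282321, minus strand, mm10) was at 28.8 and 41.7 CPM in MEF, 0.98 and 0.122 in Muscle, against 440 and 295 in Transdifferentiated. The groups did not overlap, and the log2 fold change of Transdifferentiated against MEF was 3.38 ± 0.50 (adjusted p = 0.00134). Lyz2 held 21.9% of the summed CPM of the 45 genes in MEF and 25.6% in Transdifferentiated. Per kilobase of exon it ranked first in both groups, at 26.8 and 279 CPM per kilobase.

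Tyrobp and Fcer1g encode the small adaptor proteins that carry ITAM motifs, the docking sites through which activating receptors signal to the kinase Syk. Tyrobp was at 7.21 and 3.98 CPM in MEF, 0 in both Muscle libraries, and 45.6 and 43.7 in Transdifferentiated, a log2 fold change against MEF of 3.0 ± 0.38 (adjusted p = 0.00093). Fcer1g was at 8.03 and 5.73 CPM in MEF, 0.298 and 0.0608 in Muscle, against 67.7 and 55.5 in Transdifferentiated, a change of 3.16 ± 0.38 (adjusted p = 0.00042). The groups did not overlap for either adaptor. Trem2, a lipid receptor that signals through Tyrobp, had 44 and 26 counts in MEF, 0 in both Muscle libraries and 347 and 361 in Transdifferentiated, and rose by 3.33 ± 0.44 (adjusted p = 0.00119). The Fc receptors, which bind antibody-coated particles, rose by 4.29 ± 0.62 (Fcgr1, activating), 3.80 ± 0.62 (Fcgr2b, inhibitory) and 3.47 ± 0.41 (Fcgr3, activating), with adjusted p from 0.00035 to 0.00226. Without Transdifferentiated replicate 1 the Fcgr1 value was 3.66, and Fcgr2b overlaps Gm38204 on the other strand.

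Mpeg1, a pore-forming protein aimed at ingested bacteria, was at 6.22 and 8.69 CPM in MEF, 0.17 and 0 in Muscle, against 67.0 and 48.8 in Transdifferentiated (log2 fold change against MEF 2.95 ± 0.42, adjusted p = 0.00106). Ctss, a lysosomal protease that trims antigens, was at 1.38 and 3.40 CPM in MEF and at 47.7 and 23.7 in Transdifferentiated, with a change of 3.89 ± 0.54 (adjusted p = 0.00101), or 4.68 without MEF replicate 2. In each of these genes the higher Transdifferentiated library was replicate 1. Cybb, the catalytic subunit of the phagocyte NADPH oxidase, which makes superoxide, rose by 3.62 ± 0.55 (adjusted p = 0.00242; 4.49 without MEF replicate 2), and Ncf1, a cytosolic organizer of that enzyme, by 2.62 ± 0.37 (adjusted p = 0.00098). Ncf1 overlaps Gtf2ird2 on the other strand.

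Cd68, a lysosomal glycoprotein, was at 10.8 and 4.51 CPM in MEF, 2.0 and 1.03 in Muscle, against 28.4 and 35.3 in Transdifferentiated. It rose by 2.06 ± 0.46 (adjusted p = 0.011), or by 2.81 without MEF replicate 1. The scavenger receptor Msr1 and the fungal glucan receptor Clec7a had the smallest changes of the phagocytic genes, 2.01 ± 0.55 (adjusted p = 0.0291) and 1.99 ± 0.61 (adjusted p = 0.0411). Both calls were lost without Transdifferentiated replicate 1, where Msr1 was at 1.32 (adjusted p = 0.197) and Clec7a at 1.24 (adjusted p = 0.352). Msr1 was also lost without MEF replicate 2 (adjusted p = 0.072), and Clec7a without either MEF library (0.127 and 0.0969) or either Muscle library (0.0573 and 0.057). Slc11a1, a metal transporter of the phagosome, was at 0.935 and 0.097 CPM in MEF, 0.682 and 0 in Muscle, against 1.40 and 3.72 in Transdifferentiated. It did not pass the test (log2 fold change 2.33 ± 1.15, adjusted p = 0.173), though it did without MEF replicate 1 (4.64, adjusted p = 0.0321).

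The inflammatory genes were low and uneven. Cd14, the co-receptor for bacterial lipopolysaccharide, had the highest level of them per kilobase of exon in MEF and in Transdifferentiated. It was at 9.85 and 8.30 CPM in MEF, 1.07 and 0.182 in Muscle, against 22.6 and 18.0 in Transdifferentiated. MEF and Transdifferentiated did not overlap, but the log2 difference of 1.16 ± 0.48 did not pass the test (adjusted p = 0.11). It passed without either Muscle library (adjusted p = 0.0466 and 0.0458), which leaves the values of the compared groups as they were. Alox5ap, which hands arachidonic acid to 5-lipoxygenase, was at 3.08 and 2.43 CPM in MEF, 0.724 and 0.608 in Muscle, against 12.4 and 9.67 in Transdifferentiated, and rose by 2.0 ± 0.37 (adjusted p = 0.00431). Alox5ap overlaps Gm19719 on the other strand.

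Tlr7, a Toll-like receptor for single-stranded RNA, rose by 3.44 ± 0.60 (adjusted p = 0.00439), from 0.33 and 0.631 CPM in MEF to 6.74 and 3.92 in Transdifferentiated, with 0 in both Muscle libraries. Cd84, an adhesion receptor of the SLAM family, rose by 3.36 ± 0.64 (adjusted p = 0.00669), with 2.72 without MEF replicate 1 and 4.62 without MEF replicate 2. The co-stimulatory ligand Cd86 had 4 and 3 counts in MEF and 31 and 26 in Transdifferentiated. Its change of 3.0 ± 0.77 (adjusted p = 0.0222) lost its call without any 1 of the 4 libraries compared (adjusted p from 0.059 to 0.127).

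Aif1, the calcium-binding protein Iba1, had 0 and 1 counts in MEF, 8 and 2 in Muscle, against 87 and 12 in Transdifferentiated. The Transdifferentiated libraries differed widely, and the ratio to MEF was 99.8 with a 95% counting interval from 17.5 to 3979 (adjusted p = 0.0114). The call was lost without Transdifferentiated replicate 1 (adjusted p = 0.097). Cd300lb, an activating receptor of myeloid cells, was at 0.825 and 1.07 CPM in MEF and 3.48 and 2.71 in Transdifferentiated (log2 fold change 1.70 ± 0.66, adjusted p = 0.0929). Pilra, an inhibitory receptor of myeloid cells, was the 1 gene lower in both Transdifferentiated libraries, at 0.88 and 1.21 CPM in MEF, 0.383 and 0.122 in Muscle, against 0.505 and 0.0967 in Transdifferentiated. Its log2 fold change of -1.81 ± 0.88 did not pass the test (adjusted p = 0.165), and it overlaps Zcwpw1 on the other strand. Pilra passed the low-count filter only through the MEF libraries and so had to stand high there.

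Among the pan-leukocyte genes, Spi1, which encodes PU.1, was at 2.86 and 1.16 CPM in MEF, 0.0852 and 0 in Muscle, against 11.6 and 8.51 in Transdifferentiated. The groups did not overlap, and the log2 fold change against MEF was 2.32 ± 0.54 (adjusted p = 0.0132), or 3.09 without MEF replicate 1. Ptprc, a phosphatase on all nucleated blood cells, was at 0.55 and 1.36 CPM in MEF, 0 in Muscle, against 7.24 and 3.24 in Transdifferentiated. Its rise of 2.44 ± 0.65 (adjusted p = 0.0267) was lost without MEF replicate 1 (adjusted p = 0.0775) and without Transdifferentiated replicate 1 (adjusted p = 0.136), and was 3.23 without MEF replicate 2.

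Rac2, a GTPase that also drives the NADPH oxidase, rose by 2.40 ± 0.52 (adjusted p = 0.00904; 3.34 without MEF replicate 1), and Vav1, a factor that loads such GTPases, by 2.43 ± 0.50 (adjusted p = 0.00883). Lcp1, an actin-bundling protein, went from 14.6 and 15.5 CPM in MEF to 53.3 and 43.5 in Transdifferentiated, a change of 1.68 ± 0.29 (adjusted p = 0.00296), while the Muscle libraries held 1 and 2 counts. Coro1a, an actin-binding protein, rose by 1.51 ± 0.42 (adjusted p = 0.0281), a call lost without MEF replicate 2 (adjusted p = 0.136) and without Transdifferentiated replicate 1 (adjusted p = 0.145). Lcp1 overlaps Gm15628 and Gm15629, and Coro1a overlaps Bola2, each on the other strand. The signalling proteins Arhgap30, at 2.07 ± 0.70 (adjusted p = 0.0621), and Hcls1, at 2.93 ± 1.01 (adjusted p = 0.0616), did not pass. Arhgap30 passed without MEF replicate 2 (adjusted p = 0.0321), and Hcls1 without either Muscle library or without Transdifferentiated replicate 2 (0.0252 to 0.0446).

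Laptm5, a lysosomal membrane protein that turns down receptor signalling, and Cd53, a tetraspanin, were the members with the highest levels per kilobase of exon in Muscle. Laptm5 was at 10.3 and 4.46 CPM in MEF, 13.4 and 10 in Muscle, against 44.4 and 69.1 in Transdifferentiated. Cd53 was at 4.73 and 7.62 CPM in MEF, 10.3 and 14.3 in Muscle, against 29.0 and 10.4 in Transdifferentiated. For Laptm5 the Transdifferentiated libraries stood apart (2.95 ± 0.44 against MEF, adjusted p = 0.00151; 3.66 without MEF replicate 1), whereas for Cd53 they overlapped Muscle. The Cd53 rise against MEF of 1.67 ± 0.50 (adjusted p = 0.0369) was 0.76 without Transdifferentiated replicate 1 (adjusted p = 0.29) and missed the threshold without MEF replicate 1 (0.0979) and without either Muscle library (0.0505 and 0.0504).

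Muscle against MEF went the other way from Transdifferentiated against MEF for most genes. Of the 45, 33 were lower in Muscle, against 18.3% of all tested genes, and 1 was higher, against 17.3%, with 35.6% called in either direction. The higher gene, Cd163, passed the filter only through Muscle. Both Muscle libraries lay below both MEF libraries for 36 genes and above them for 4, where 34.3% and 34.5% of all tested genes did so. The median log2 fold change was -4.26 with fitted values and -2.62 with the 11 genes at 0 counts in both Muscle libraries set to their lower bounds, beside 0.00 over all tested genes. Those 11 genes were Tyrobp, Adgre1, Trem2, Cybb, Msr1, Ptprc, Vav1, Arhgap30, Cd84, Cd86 and Tlr7. At a floor of 3 counts per library, Tyrobp was at least 36.1-fold lower in Muscle than in MEF, Trem2 at least 11.9-fold, Msr1 at least 9.55-fold, Adgre1 at least 8.68-fold and Ptprc at least 6.15-fold. Csf1r fell by 4.06 ± 0.35 on the log2 scale (adjusted p = 3.6e-05), Ncf1 by 2.05 ± 0.43 (adjusted p = 0.00533) and Alox5ap by 2.03 ± 0.42 (adjusted p = 0.00537). Lyz2 fell by 5.87 ± 0.61 (adjusted p = 0.00014), with -8.11 without Muscle replicate 1 and -5.16 without Muscle replicate 2, since the Muscle libraries held 23 and 2 counts.

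By role, 7 tissue-resident, 14 phagocytic, 5 inflammatory and 7 pan-leukocyte genes fell in Muscle against MEF. The calls of Cd68, Fcgr1, Fcgr2b, Fcgr3, Arhgap30, Clec7a and Cd86 were each lost without at least 1 library, with adjusted p from 0.051 (Fcgr3 without Muscle replicate 1) to 0.169 (Cd86 without Muscle replicate 1). The genes not called included Mrc1, with a log2 fold change of 0.02 ± 0.58 (adjusted p = 0.986), and Folr2, with 0.79 ± 0.63 (adjusted p = 0.371). Laptm5 and Cd53, at 0.67 ± 0.42 (adjusted p = 0.255) and 0.99 ± 0.50 (adjusted p = 0.158), were not called either, although Laptm5 was higher in Muscle without MEF replicate 1 (1.39, adjusted p = 0.0263). The Muscle sum of the pan-leukocyte genes, 24.4 and 24.5 CPM, was mostly these 2 genes.

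Transdifferentiated against Muscle shares its Transdifferentiated and Muscle libraries with the comparisons above. It had 38 genes higher, against 7.58% of all tested genes, and 0 lower, against 2.46%. Of the 12 genes that passed the filter only through Transdifferentiated 9 were called higher, and of the other 33 genes 29 were, with a median fitted log2 fold change of 6.48. At an unadjusted p under 0.05, Cd163 alone was lower, and DESeq2 called 0 lower. The median log2 fold change was 7.88, or 5.96 with genes at their bounds, beside 0.03 over all tested genes. Tyrobp was at least 288-fold higher, Adgre1 at least 188-fold, Trem2 at least 119-fold and Cybb at least 72.9-fold, and Csf1r rose by 6.36 ± 0.37 on the log2 scale (adjusted p = 9.5e-05). C1qa, with 1 count in each Muscle library, was 926 times as high, with a 95% counting interval from 256 to 7649.9. Of the 38 calls, those of Laptm5, Cd300lb, Folr2 and Cd86 were lost without some library, with adjusted p from 0.0503 (Cd86 without Muscle replicate 1) to 0.205 (Folr2 without Muscle replicate 1).

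Levels per kilobase of exon put the genes on a common scale within a group. In Transdifferentiated the highest were Lyz2 at 279 CPM per kilobase, C1qb at 129, Fcer1g at 70.5, Tyrobp at 66.9, C1qa at 44.4 and C1qc at 27.9, and the lowest were Pilra at 0.0974 and Cd163 at 0.0581. In MEF the order began with Lyz2 at 26.8, Tyrobp at 8.39, Fcer1g at 7.87 and C1qb at 7.33. In Muscle it began with Cd53 at 7.06 and Laptm5 at 3.09. Lysozyme, the ITAM adaptors and C1qb thus headed the order in MEF and in Transdifferentiated, and genes with wider use among leukocytes headed it in Muscle. The 2 Transdifferentiated libraries differed from each other. Among 41 genes with at least 20 counts in each of the 2, 31 were higher in replicate 1. Their median log2 ratio was 0.36, with a range from -1.41 (Slc11a1) to 1.47 (Cd53). That rule left out Aif1, with 87 and 12 counts (4.88 and 0.58 CPM), which differed more.

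Since most members moved together, the sequence before their start sites was searched for motifs, and that of 6 members is shown. RefSeq promoters (GRCm38.p6, 250 bases before to 50 after the start) were matched by symbol for 33 of the 45 genes. The core GAGGAA, bound by PU.1, was present on either strand in 21 of the 33 (63.6%) and in 31.3% of 27025 symbols. It was present in 19 of 27 genes called higher in Transdifferentiated than in MEF and in 2 of 6 not called. The 150 bases before the start are given 5′ to 3′ on the gene's strand, with GAGGAA or its reverse complement TTCCTC in capitals:
C1qb, chr4:136886201-136886350, minus strand: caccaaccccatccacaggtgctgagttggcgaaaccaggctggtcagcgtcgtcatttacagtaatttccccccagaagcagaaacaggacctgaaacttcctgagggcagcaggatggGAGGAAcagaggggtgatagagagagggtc
F13a1, chr13:37050245-37050394, minus strand: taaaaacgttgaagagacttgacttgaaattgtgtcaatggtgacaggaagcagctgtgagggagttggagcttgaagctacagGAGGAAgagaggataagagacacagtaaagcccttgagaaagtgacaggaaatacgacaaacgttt
Trem2, chr17:48346251-48346400, plus strand: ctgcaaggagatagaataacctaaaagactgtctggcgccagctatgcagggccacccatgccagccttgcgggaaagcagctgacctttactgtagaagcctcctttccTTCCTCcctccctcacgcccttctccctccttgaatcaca
Fcgr1, chr3:96293970-96294119, minus strand: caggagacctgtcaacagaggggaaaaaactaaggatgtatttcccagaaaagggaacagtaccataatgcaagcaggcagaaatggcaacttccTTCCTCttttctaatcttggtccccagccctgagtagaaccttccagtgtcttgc
Mpeg1, chr19:12460620-12460769, plus strand: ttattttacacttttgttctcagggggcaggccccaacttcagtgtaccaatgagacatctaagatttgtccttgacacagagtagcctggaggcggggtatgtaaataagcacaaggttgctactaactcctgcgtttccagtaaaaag
Cd163, chr6:124304501-124304650, plus strand: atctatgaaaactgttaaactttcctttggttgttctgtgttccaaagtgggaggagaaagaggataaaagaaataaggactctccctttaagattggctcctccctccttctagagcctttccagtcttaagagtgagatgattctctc

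The match lies 30 bases before the start in C1qb, 66 in F13a1, 40 in Trem2 and 55 in Fcgr1, counting to the upstream end of the 6 letters. Mpeg1, which rose, and Cd163, which was not called, have none in these windows. The other motifs searched, on both strands, were GAGGAAGT (5 of 33, 15.2%, against 3.69% of all symbols), GGAAGT (20 of 33, 60.6%, against 26.5%), GGAA (33 of 33, against 96.5%), TGACTCA (4 of 33, 12.1%, against 5.95%) and TATAAA (7 of 33, 21.2%, against 15.7%). The first 4 motifs overlap, since each holds GGAA. A match describes letters only, and no binding was measured.

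The growth factors and transcription factors around these genes did not rise as a block. Csf1, the ligand of Csf1r, was at 1959.7 and 1352 CPM in MEF, 177 and 128 in Muscle, against 77.4 and 126 in Transdifferentiated. It fell by 4.03 ± 0.36 on the log2 scale in Transdifferentiated against MEF (adjusted p = 7.9e-05) while its receptor rose, and the other ligand, Il34, at 0.72 ± 0.48, was not called (adjusted p = 0.308). Of 8 tested growth factor and receptor genes, 2 were higher in Transdifferentiated than in MEF (25%, beside 15.9% of all tested genes), the receptor subunit Csf2rb (3.82 ± 0.60, adjusted p = 0.00272) and the granulocyte factor receptor Csf3r (3.66 ± 1.1, adjusted p = 0.0422). Both passed the filter only through Transdifferentiated and so had to stand high there. The Csf3r call was lost without MEF replicate 1 (adjusted p = 0.111) and without Transdifferentiated replicate 2 (adjusted p = 0.191).

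Of 12 tested myeloid transcription factors, 4 were higher (33.3%) and 1 lower (8.33%), beside 15.9% and 11.3% of all tested genes. Irf8 rose by 3.33 ± 0.74 (adjusted p = 0.0105), Ikzf1 by 3.29 ± 0.60 (adjusted p = 0.00384) and Runx1 by 1.09 ± 0.30 (adjusted p = 0.0286). Irf8 and Ikzf1 passed the filter only through Transdifferentiated and so had to stand high there. Klf4 fell by 1.63 ± 0.47 (adjusted p = 0.0319), a call lost without MEF replicate 1 (adjusted p = 0.123) and without Transdifferentiated replicate 1 (adjusted p = 0.0978). In Muscle, where most of the 45 genes were near 0, Runx1 was at 315 and 345 CPM. It was not called between Transdifferentiated and Muscle (adjusted p = 0.852).

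Other macrophage surface receptors rose in 12 of 15 tested cases (80%), and 1 fell (6.67%), beside the same 15.9% and 11.3% of all tested genes. This list held 22 genes. The 7 that did not pass the filter and were not tested were Itgam, Itgax, Vsig4, Marco, Timd4, Clec10a and Ccr2. Cx3cr1, the fractalkine receptor of resident macrophages, was at 1.27 and 1.6 CPM in MEF, 0.0426 and 0.122 in Muscle, against 28.4 and 24.6 in Transdifferentiated (4.20 ± 0.38, adjusted p = 7.6e-05). Cd36, a fatty acid transporter that muscle fibres also express, was at 0.385 and 1.5 CPM in MEF, 72.8 and 71.4 in Muscle, against 219 and 135 in Transdifferentiated (7.51 ± 0.58, adjusted p = 3e-05). Cd36 was thus high in Muscle, whereas Cx3cr1 was near 0 there. Axl, a receptor for dying cells that fibroblasts also express, fell by 3.0 ± 0.33 (adjusted p = 0.00025). Of 16 tested genes of ITAM and ITIM signalling, 9 rose (56.2%), with Dock2 at 2.99 ± 0.44 (adjusted p = 0.00178), Nckap1l at 2.95 ± 0.46 (adjusted p = 0.00176) and the adaptor Pik3ap1 at 2.92 ± 0.44 (adjusted p = 0.00221). Among 6 tested NADPH oxidase partners, Ncf4 rose by 3.89 ± 0.61 (adjusted p = 0.0027), while the membrane subunit Cyba, the partner of Cybb, stood at -1.20 ± 0.47 (adjusted p = 0.0947). Ncf4 passed the filter only through Transdifferentiated and so had to stand high there.

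Of 14 tested Toll-like receptors and adaptors, 5 rose (35.7%) and 2 fell (14.3%), with Tlr13 at 3.0 ± 0.53 (adjusted p = 0.00344), Tlr8 at 3.45 ± 0.64 (adjusted p = 0.00421) and Tlr2 at 1.73 ± 0.33 (adjusted p = 0.00499). Tlr8 passed the filter only through Transdifferentiated and so had to stand high there. Of 10 tested cytokine and enzyme genes, 3 rose and 2 fell (30% and 20%, beside 15.9% and 11.3% of all tested genes). Il1rn, the natural blocker of interleukin 1, fell from 70.2 and 62.5 CPM in MEF to 10.1 and 8.13 in Transdifferentiated and to 0.0426 and 0.0608 in Muscle. Ptgs2, the inducible cyclooxygenase, fell by 3.32 ± 0.39 (adjusted p = 0.00036). Arg1, an arginine-degrading enzyme of repair macrophages, rose from 0.11 and 1.02 CPM to 17.9 and 10.1 (4.58 ± 0.81, adjusted p = 0.00345). Nos2, the inducible nitric oxide synthase of inflamed macrophages, rose from 0 counts in both MEF libraries to 25 and 43 counts (adjusted p = 0.00204), with 11 and 9 in Muscle. Arg1 and Nos2 likewise passed the filter only through Transdifferentiated. Il1b, which encodes interleukin 1 beta, rose from 0 counts in both MEF libraries to 20 and 5 counts (adjusted p = 0.0193), below its 40 and 30 counts in Muscle. Alox5, the lipoxygenase served by Alox5ap, was at 87.7 and 90.1 CPM in Muscle but at 1.43 and 0.679 in MEF and 1.40 and 3.58 in Transdifferentiated. Broad lysosomal genes, which every cell uses, had 1 higher (Lgmn, a lysosomal protease, 1.11 ± 0.23, adjusted p = 0.0064), 5 lower and 7 not called of 13. That is 7.69% and 38.5%, beside 15.9% and 11.3% of all tested genes.

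**Figure D3:**
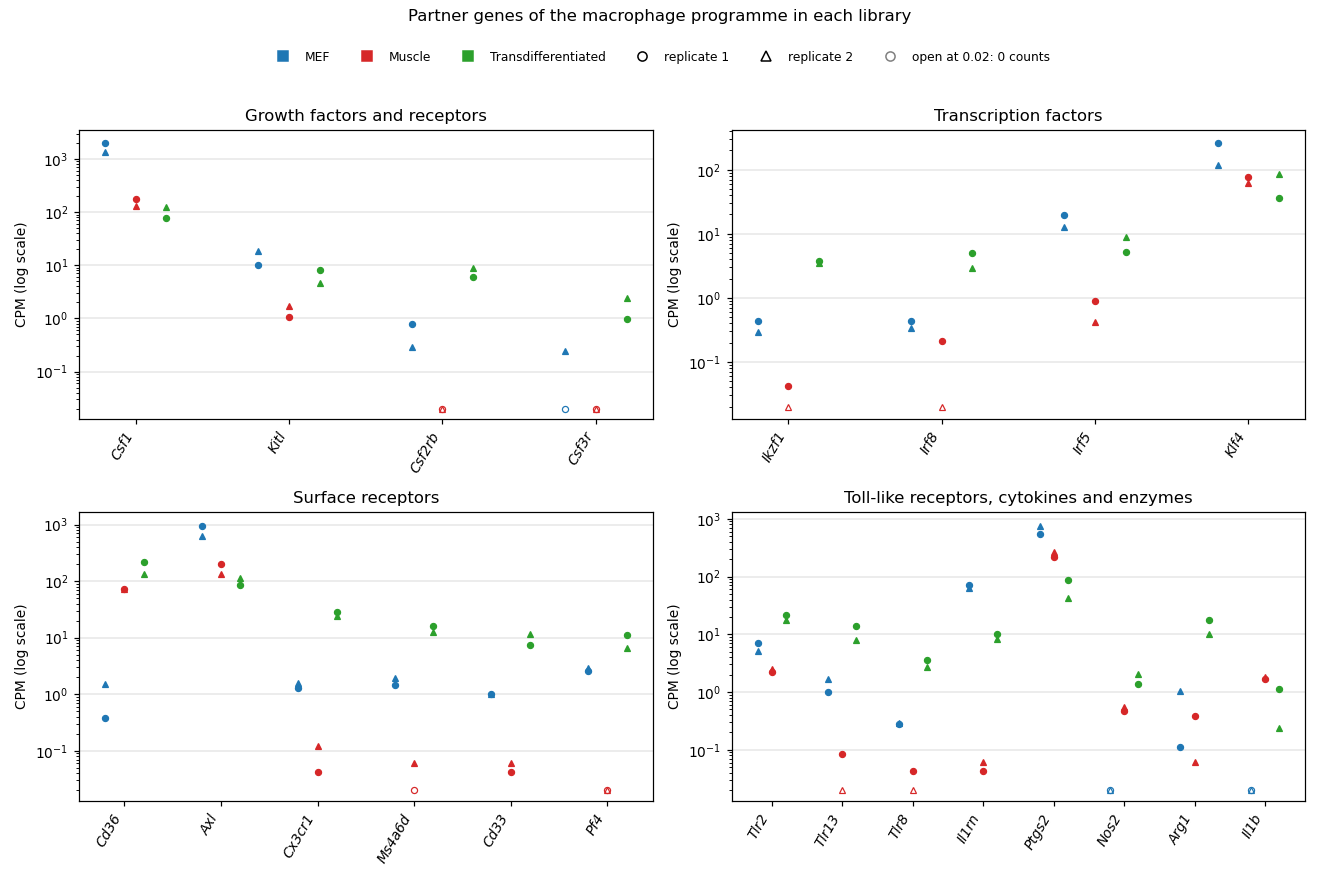
Levels of 22 genes around the macrophage list in every library, in CPM on a log scale, with symbols as for the 45 genes; open symbols at 0.02 mark 0 counts. Csf1, Axl, Il1rn and Ptgs2 are highest in MEF, while Cx3cr1, Csf2rb, Tlr13 and Arg1 are highest in Transdifferentiated.

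Markers of other blood and vessel cells were read beside these results. Neutrophil and monocyte markers summed to 99.5 and 123 CPM in MEF, 5.2 and 3.59 in Muscle, against 10.6 and 6.29 in Transdifferentiated, mostly from Plac8, with S100a9, Ngp, Ltf, Elane and Retnlg at 0 counts in all 6 libraries. T and NK cell markers summed to 0.275 and 0.34 CPM in MEF, 3.88 and 1.09 in Muscle, against 11.2 and 9.48 in Transdifferentiated. This sum was nearly all Cd3g, with 177 and 185 counts in Transdifferentiated, where Cd3e had 3 and 3 counts, Cd3d 3 and 2, Cd4 1 and 0, and Cd8a 0. The B cell markers summed to 1.21 and 1.12 CPM in MEF, 11.7 and 3.65 in Muscle, against 7.75 and 6.48 in Transdifferentiated, mostly from Ighm, with Ms4a1 and Igkc at 0 in every library. The dendritic cell markers summed to 6.71 and 7.96 CPM in MEF, 11.5 and 9.0 in Muscle, against 14.3 and 16.7 in Transdifferentiated, the same order of MEF and Transdifferentiated as the macrophage genes. Most of this sum was Zbtb46, a dendritic cell transcription factor also made by endothelium, at 6.11 and 6.94 CPM in MEF and 12.8 and 14.5 in Transdifferentiated (adjusted p = 0.036, a call lost without any 1 library, with adjusted p from 0.063 to 0.152), while Clec9a had 1 and 0 counts in both of these groups and Cd209a 0 in Transdifferentiated. Mast cell markers summed to 4.04 and 6.38 CPM in Transdifferentiated, below the 52.9 and 25.9 of MEF, with Cpa3 at 0 throughout. Nearly all of this sum was Gata2, at 52.5 and 24.8 CPM in MEF and 3.2 and 5.51 in Transdifferentiated. The other 7 mast cell markers did not pass the filter. Endothelial markers summed to 63.6 and 46.0 CPM in MEF, 24.7 and 27.0 in Muscle, against 18.9 and 28.5 in Transdifferentiated, and Pecam1 had 6 and 6 counts in MEF, 11 and 0 in Muscle, against 17 and 22 in Transdifferentiated. The platelet chemokine gene Ppbp was at 34.3 and 39.9 CPM in MEF and at 0.393 and 0.242 in Transdifferentiated. Of 12 neutrophil and monocyte markers, 6 and 5 were at 0 in MEF, 9 and 8 in Muscle and 8 in each Transdifferentiated library. Of 12 T and NK cell markers, 11 and 10 were at 0 in MEF, 5 and 8 in Muscle and 6 in each Transdifferentiated library. The part of these other cells in the results above was not tested.

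**Figure D4:**
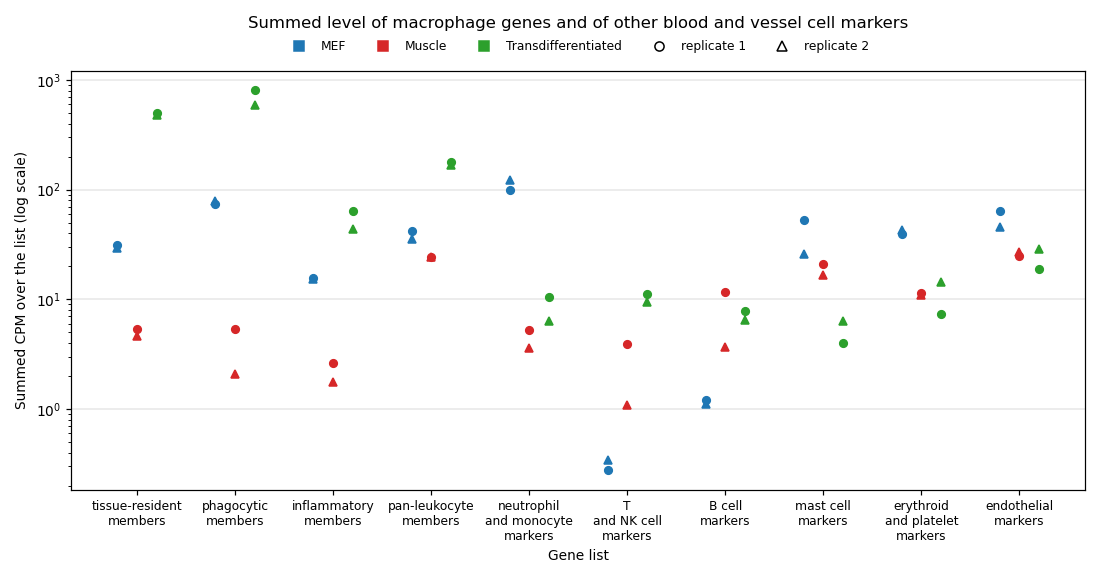
Summed CPM, on a log scale, of the 4 roles of macrophage genes and of 6 lists of markers of other blood and vessel cells, in each library; colours are groups, circles replicate 1 and triangles replicate 2. The 4 macrophage sums are highest in Transdifferentiated, the neutrophil, mast cell, erythroid and endothelial sums are highest in MEF, and the T and NK cell sum is highest in Transdifferentiated.

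Microglia markers are shared in part with other resident macrophages. Of 6 tested, 3 were higher in Transdifferentiated than in MEF (50%, beside 15.9% of all tested genes). All 3, Gpr34, P2ry12 and P2ry13, passed the filter only through Transdifferentiated and so had to stand high there. Gpr34, a lysophospholipid receptor, had 3 and 0 counts in MEF and 6.23 and 4.01 CPM in Transdifferentiated (adjusted p = 0.00245). P2ry12 and P2ry13 were called at an adjusted p of 0.0435 and 0.0107, and both calls were lost without Transdifferentiated replicate 1 (0.237 and 0.066), that of P2ry12 also without MEF replicate 1 (0.127). Of 4 tested osteoclast markers, none was called higher and 1 was called lower (25%, beside 11.3% of all tested genes). The lower gene was Ctsk, the bone-matrix protease, with a log2 fold change of -1.73 ± 0.30 (adjusted p = 0.00336). Mmp9, at 1.31 ± 0.45 (adjusted p = 0.0611), and Atp6v0d2, at 1.85 ± 0.85 (adjusted p = 0.144), went the other way but were not called. The median over the 4 was 0.46.

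A log2 fold change and an adjusted p for 2806 genes stand in the authors' deposited table, whose header names no contrast and which held 28 of the 45 genes. There, in the authors' deposited table, the sign was positive for 27 of them and negative for Cd163, the opposite of the sign of Muscle minus MEF in the fits above for all 28. Among these 28, the smallest size of log2 fold change in the authors' deposited table was 2.15 (Cd68), and the largest adjusted p was 0.0137 (Ms4a7).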

How the data were processed

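Per the labels' protocols, RNA was isolated on Qiagen columns and made into libraries with the Lexogen SENSE mRNA-seq V2 kit, read as 75-base single-end reads. The deposited counts are whole numbers of reads for each gene symbol, not normalized by the authors, beside a table of log2 fold changes with each p-value and adjusted p; the contrast of that deposited table is not named. The submitters' processing notes name Trim Galore 0.6.0, HISAT2 2.1.0, featureCounts 1.6.2, DESeq2 1.26.0 and mm10; the annotation and strand setting: not given in the sources used here.

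From the counts, edgeR 4.0.16 (R 4.3.3) was run with TMM factors, the filterByExpr filter (10 counts, a cutoff of 0.527 CPM in 2 libraries) and the quasi-likelihood test, in 1 fit over all 6 libraries (3 residual degrees of freedom, biological coefficient of variation 27.3%). Calls were made at a Benjamini-Hochberg adjusted p under 0.05 over 17400 genes; SE is the fold change divided by the square root of F. CPM uses TMM-scaled library sizes. The floor of 3 counts is 0.128 to 0.182 CPM per library, and 95% Poisson intervals and floors cover counting error only. Exon lengths, positions and overlaps come from GENCODE release M21, which matched all 45 symbols. Tested on simulated data for Transdifferentiated against MEF (16734 genes, all with the same spread), the fit recovered 14% of 2-fold, 80% of 4-fold and 96% of 8-fold changes, with 7 false calls.

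The 45 genes, their roles and the 19 other lists were chosen with earlier results of these data known. From each other list, the 3 genes with the smallest adjusted p per comparison could be named, plus up to 2 called against its direction. Il34, Pecam1, the surface receptors not tested and the cell markers given only by counts were named after their values were seen. Other normalizations, filters, a replicate block, a 2-group fit, DESeq2 1.42.0 and leaving out each library were tried.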

Additional observations from a re-analysis of the deposited data

How the results depend on the processing

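With 2 libraries a group and 3 residual degrees of freedom, the fit recovered 14% of simulated 2-fold changes and 80% of simulated 4-fold changes. Sizes between these were not simulated, so a change of about 2-fold that was not called may have been missed. Every simulated gene had the same spread, so these shares may not hold for members with few counts or uneven libraries. Larger fitted changes with a wide SE also went uncalled, such as Hcls1 (2.93 ± 1.01 on the log2 scale) and Slc11a1 (2.33 ± 1.15), Transdifferentiated against MEF. Some changes under 4-fold did pass in the data, among them that of Lcp1 (1.68 on the log2 scale, Transdifferentiated against MEF). Over the 14 other settings the genes higher in Transdifferentiated than in MEF numbered 30 to 42 and those lower 0; those lower in Muscle than in MEF 25 to 33; those higher in Transdifferentiated than in Muscle 31 to 41. The 1 gene higher in Muscle than in MEF became 2 with no low-count filter and 0 with 10 counts required in 4 libraries, which tested 33 of the 45 genes and not Cd163, and was 1 to 2 when each library was left out. Calls held in every setting that tested the gene for 30 of 37, 27 of 34 and 34 of 38 genes. Over all tested genes, leaving out each library gave 1280 to 1926 lower in Transdifferentiated than in MEF, 1980 to 3223 higher and 1778 to 3445 lower for Muscle against MEF, and 589 to 1616 higher and 140 to 605 lower in Transdifferentiated than in Muscle. The last count was 670 with no low-count filter. No member's change that passed the test turned sign in any of these settings (0 of 1497 values). Among changes that did not pass, 18 of 342 values turned sign, in Cd53, F13a1, Hcls1, Lyve1, Mrc1, Pilra and Slc11a1. The cause of these differences in count was not tested. Replicate numbers shared between groups are only numbers here: deviations from the group means correlated at 0.314 (MEF and Muscle), -0.529 (MEF and Transdifferentiated) and -0.291 (Muscle and Transdifferentiated). With the replicate block, 32 genes were higher in Transdifferentiated than in MEF, 1 was higher and 32 were lower for Muscle against MEF, 36 were higher in Transdifferentiated than in Muscle, and 265 tested genes were lower in Transdifferentiated than in Muscle. Other scalings moved the median of all tested genes by at most 0.084 on the log2 scale.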
